A study of Drosophila mojavensis with 137 samples.

Results

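Virgin females of Drosophila mojavensis reared on organ pipe cactus were compared between Punta Prieta in Baja California and Las Bocas in Sonora. The arrays were taken by their titles, 10 for Punta Prieta and 8 for Las Bocas, which makes 18 of the 137 arrays of the series. All were one-colour NimbleGen hybridisations of RNA from whole adult flies, wild type in genotype and of normal phenotype according to the labels, raised in bottles at moderate larval density under cycling light and temperature. Flies were sorted by the time from egg to adult. Punta Prieta gave 4 arrays at 15 days, 2 at 16 days, 3 at 17 days and 1 at 18 days, and Las Bocas gave 2, 3, 2 and 1 at the same times. Punta Prieta also had 2 arrays at 14 days, where the labels list no Las Bocas array on this cactus, so these stayed out of the comparison. Each population is a single source stock, coded PP08 and LB09, so population, stock and year of the stock cannot be told apart. The labels do not say whether replicates were separate cultures or pools, so each p-value measures only the spread between these arrays.

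Drosophila mojavensis breeds in rotting columnar cacti. Flies of the Baja California peninsula use mainly agria and flies of mainland Sonora mainly organ pipe. The rots of the cacti differ in sterols, triterpene glycosides, fatty acids and the yeasts and bacteria they hold, so larvae meet different food and toxins. Organ pipe is thus the usual host of the Las Bocas flies and the alternative host of the Punta Prieta flies, and the comparison asks how adult virgin females of these populations differ when both grew up on it.

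The arrays carry 14528 transcripts under FlyBase transcript identifiers. The files do not pair these with gene names, and 0 of them matched the 15130 genes of the reference table, so transcripts are named by identifier only and no role is given to any. Values are log2 expression as the authors deposited it, made with RMA, and 1 unit is a 2-fold difference. Differences are Punta Prieta minus Las Bocas with development time as a linear covariate, and a transcript is said to differ when limma's Benjamini-Hochberg adjusted p over all transcripts lay below 0.05. A sequence difference between the populations at a probe and a difference in RNA level cannot be told apart on these arrays.

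Of 14528 transcripts, 751 differed between the populations (5.17%), 426 higher in Punta Prieta (2.93%) and 325 lower (2.24%). Most of these differences were small. Their median size was 0.43 log2, a fold of 1.35, and 575 of the 751 were under 1.5-fold. Larger ones lay mainly on the Punta Prieta side, with 36 transcripts over 2-fold higher there (0.248%) and 11 over 2-fold lower (0.0757%). Over 4-fold, 5 were higher (0.0344%) and 0 lower, with FBtr0164933, FBtr0167831 and FBtr0175546 among the 5. For 11197 transcripts (77.1%) the 95% interval of the difference lay within 1.5-fold in either direction, and for 14210 (97.8%) within 2-fold. Before adjustment, 3292 transcripts (22.7%) had p below 0.05.

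**Figure D1:**
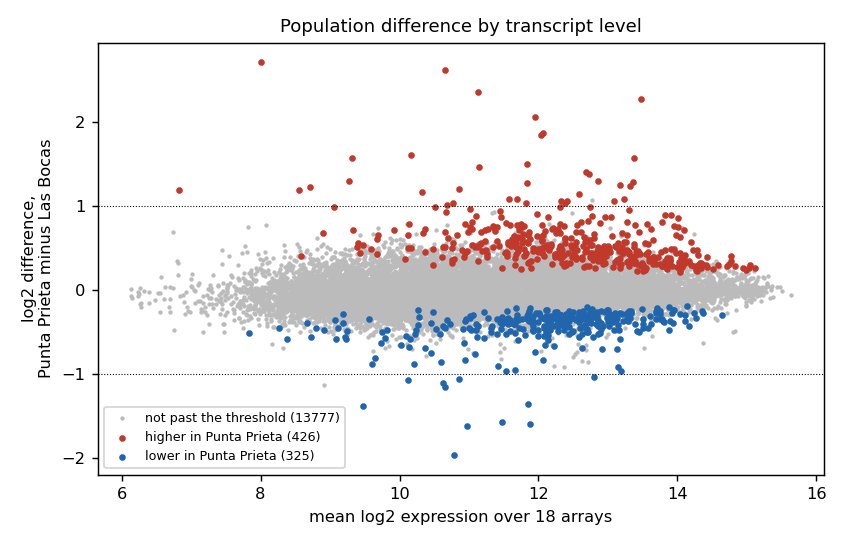
Each point is 1 of the 14528 transcripts, with its mean log2 expression over the 18 arrays on the x axis and the log2 difference, Punta Prieta minus Las Bocas, on the y axis. Red marks the 426 transcripts higher in Punta Prieta and blue the 325 lower, and the dotted lines at 1 and -1 mark 2-fold, past which there are more red points than blue.

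FBtr0164933 had the largest difference of deposited values. Its log2 values in Punta Prieta were 9.31, 8.85, 9.10 and 9.32 at 15 days, 8.96 and 9.32 at 16 days, 9.53, 9.43 and 8.95 at 17 days and 9.27 at 18 days. In Las Bocas it had 6.35 and 6.35 at 15 days, 6.66, 6.28 and 6.33 at 16 days, 6.58 and 6.59 at 17 days and 6.92 at 18 days. Every Punta Prieta array lay above every Las Bocas array, but the Las Bocas values lie near the low end of the table, whose lowest value is 5.829. The files used give no background call, so its fold is one of deposited signal and may understate the difference in RNA. Punta Prieta averaged 9.20 ± 0.226 (SD, n = 10), against 6.51 ± 0.218 (SD, n = 8) for Las Bocas. The difference was 2.71 (SE 0.0959, 95% interval 2.51 to 2.91), a fold of 6.55, with a limma adjusted p of 2.29e-12.

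FBtr0167831 had 11.99, 11.71, 11.66 and 12.00 at 15 days in Punta Prieta, 12.30 and 12.09 at 16 days, 11.59, 11.83 and 11.18 at 17 days and 11.85 at 18 days. Its Las Bocas values were 9.27 and 9.30 at 15 days, 8.79, 8.90 and 8.93 at 16 days, 9.27 and 9.68 at 17 days and 9.45 at 18 days. Again the populations did not overlap. The difference was 2.62 (SE 0.143), a fold of 6.15, with a limma adjusted p of 2.31e-09. The gap was widest at 16 days, at 3.32, and narrowest at 17 days, at 2.06.

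FBtr0167365 was the transcript lowered most in Punta Prieta. There it had 9.78, 9.77, 9.50 and 9.99 at 15 days, 10.25 and 9.98 at 16 days, 9.90, 10.25 and 9.98 at 17 days and 9.77 at 18 days. In Las Bocas the values were 12.01 and 12.27 at 15 days, 11.68, 12.11 and 11.41 at 16 days, 11.88 and 11.97 at 17 days and 11.71 at 18 days. All 10 Punta Prieta arrays lay below all 8 Las Bocas arrays. It fell by 1.96 (SE 0.119, limma adjusted p = 6.39e-09), a fold of 3.90.

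For FBtr0171396 the Punta Prieta values were 10.25, 10.29, 10.01 and 10.98 at 15 days, 9.90 and 10.48 at 16 days, 9.72, 10.11 and 10.36 at 17 days and 10.42 at 18 days. Las Bocas had 11.54 and 11.54 at 15 days, 11.65, 12.31 and 12.28 at 16 days, 11.86 and 11.92 at 17 days and 11.86 at 18 days. Here too the populations were apart, and the highest Punta Prieta array, 15 days replicate 4, came closest to the Las Bocas values. It fell by 1.62 (SE 0.153, limma adjusted p = 3.76e-06), a fold of 3.07. These 4 transcripts kept their direction and passed the threshold under every alternative run that tested them; the filter on dim transcripts removes FBtr0164933.

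**Figure D2:**
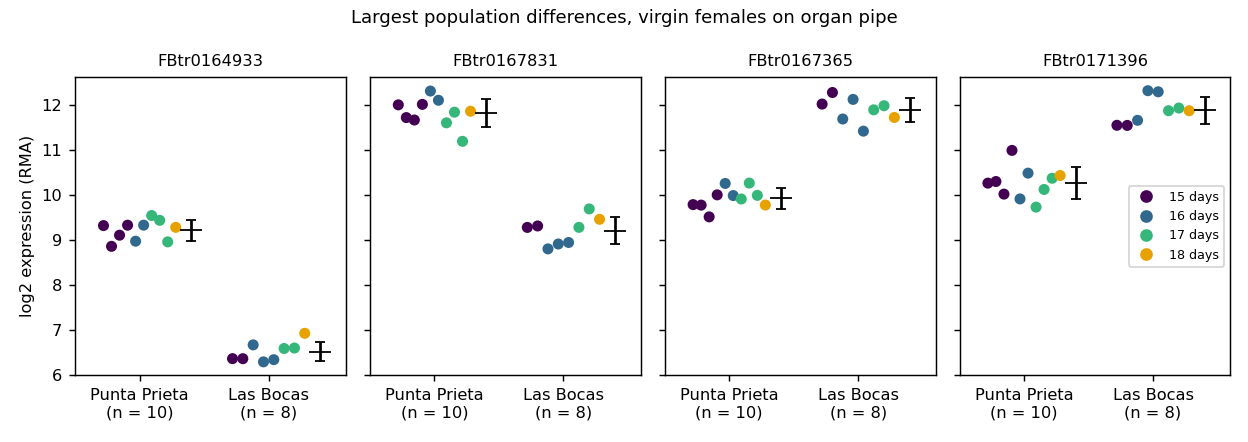
Log2 expression of FBtr0164933, FBtr0167831, FBtr0167365 and FBtr0171396 on the y axis for each of the 10 Punta Prieta and 8 Las Bocas arrays, ordered within a population by development time (colour). The bars are the mean and SD of each population, and in all 4 panels no Punta Prieta point reaches the level of a Las Bocas point.

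Such a complete separation was rare. In 63 transcripts (0.434%) all Punta Prieta arrays lay above all Las Bocas arrays, and in 44 (0.303%) all lay below. Of these, 63 and 42 also differed by limma. Among the 751, the difference of means had the sign of the fit at every development time for 705 (93.9%), over arrays the fit itself used. Of the 3632 transcripts with the lowest mean level, 18 were higher and 23 lower in Punta Prieta, and of the 3632 with the highest, 199 were higher and 104 lower. The median standard error was 0.151 among the dimmest and 0.0775 among the brightest. A difference of a given size was thus harder to detect in the dimmest than in the brightest. The share called did not follow the standard error throughout. The 3632 next above the dimmest had 0.156 and 2.92% called, against 1.13% of the dimmest. The 3632 next below the brightest had 0.105 and 8.29% called, against 8.34% of the brightest. Why fewer dim transcripts were called was not tested.

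The number of transcripts called rested on single arrays, and it ranged from 310 to 1307 when 1 array was left out. Without a Punta Prieta array the count was 390 (15 days replicate 2), 429 (15 days replicate 3), 1307 (15 days replicate 4), 466 (16 days replicate 1), 446 (17 days replicate 1) and 347 (18 days replicate 1). Without a Las Bocas array it was 370 (15 days replicate 1), 496 (16 days replicate 2), 310 (16 days replicate 3) and 498 (18 days replicate 1). Leaving out any other of the 18 arrays moved the count by less than 1.5 times. All 751 transcripts kept the sign of their difference in each of these fits. The fits reuse the arrays by which the 751 were chosen, so this is no independent check. The balance of directions was less firm, since a fit that also held each array's SD of log2 values, added once the values were known, gave 763 higher and 1199 lower in Punta Prieta, and array weights gave 1780 and 2140. Without Las Bocas 17 days replicate 1 the split was 325 higher and 390 lower, and without Las Bocas 17 days replicate 2 it was 330 and 322. Scaling moved it less, to 578 and 555 with median centring and 631 and 623 after quantile normalization.

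Across all transcripts population was not the main difference among the 18 arrays. It held 13.9% of the sum of squares, and the first principal component held 45.4%, along which the populations overlapped, from -43.2 to 53.9 in Punta Prieta and from -52.3 to 32.9 in Las Bocas. Its lower end held Punta Prieta 15 days replicate 4 and Las Bocas 17 days replicate 2, the arrays with the lowest SD of log2 values in their populations, at 1.70 and 1.68. Its upper end held Punta Prieta 17 days replicate 1 and Las Bocas 18 days replicate 1, with the highest SDs, 1.90 and 1.88. The balance of female-biased over male-biased transcripts, described further on as a sex score, ran with it, since the low-end arrays had the lowest scores of their populations, 2.50 and 2.41, and the high-end arrays the highest, 3.54 and 3.69. With array SD as a covariate, a fit chosen after seeing the data, 1962 transcripts were called, all 751 among them. Of the 1962, 38.9% were higher in Punta Prieta. The part of the sex score in the population differences was not tested. The SD itself did not separate the populations, which averaged 1.796 ± 0.0532 (SD, n = 10) for Punta Prieta against 1.778 ± 0.0641 (SD, n = 8) for Las Bocas (two-sided exact permutation test on the difference, p = 0.533). Array medians were 11.27 to 11.50 in Punta Prieta and 11.24 to 11.46 in Las Bocas (two-sided exact permutation test, p = 0.761). On the second principal component (17.3%) Punta Prieta averaged -7.33 (SD 14.1) and Las Bocas 9.17 (SD 15.2). On the third (12.6%) the averages were 7.17 (SD 9.65) and -8.96 (SD 14.0). The populations were thus shifted on both components, though their ranges overlapped. For 13 of the 18 arrays the most highly correlated other array was of the same population, and the median Pearson r was 0.973 within and 0.970 between populations.

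A population score on transcripts chosen without these arrays split all 18 by their label. It used 16 transcripts that passed the threshold and differed by over 2-fold in the same direction both in agria virgin females and in organ pipe virgin males, 9 of them higher and 7 lower in Punta Prieta. All 16 also differed in organ pipe virgin females, in the same direction (5.17% of all transcripts were called), and in 14 the populations did not overlap. The 9 were higher by 1.19 to 2.71 and the 7 differed by -0.86 to -1.96, with limma adjusted p of at most 0.0165. The score was a mean deviation in log2 units from the average of these 18 arrays, so its 0 was set by them. It ran from 0.617 to 0.824 in Punta Prieta and from -1.06 to -0.727 in Las Bocas. The Las Bocas arrays nearest to Punta Prieta were those of 17 days, at -0.789 and -0.727. The 2 Punta Prieta arrays of 14 days, which took no part in the comparison, had scores of 0.721 and 0.789, inside the range of the other Punta Prieta arrays.

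**Figure D3:**
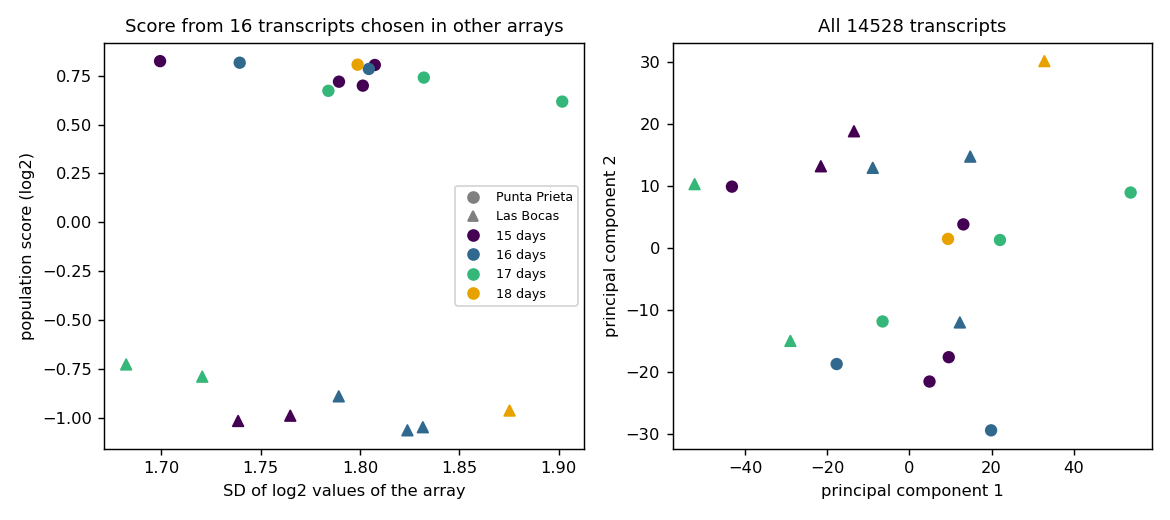
Left, the population score of each of the 18 arrays in log2 units (y axis) against the SD of that array's log2 values (x axis); right, the first 2 principal components of all transcripts. Circles are Punta Prieta, triangles Las Bocas, and colour is development time: the score splits the populations at every SD, with Punta Prieta at 0.617 or more and Las Bocas at -0.727 or less, while they overlap on the first component.

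Most of the 751 transcripts had a difference of the same sign in other flies of the same populations. These arrays share none with the 18, and each set was fitted on its own. In agria virgin females of 15 and 16 days (8 Punta Prieta and 9 Las Bocas arrays), 531 of the 751 had the same sign (70.7%), where 50.9% of all 14528 did. In organ pipe virgin males of 15 to 18 days (13 arrays of each population), 630 of the 751 did (83.9%), where 61.8% of all did. The transcripts higher in Punta Prieta females on organ pipe had a median difference of 0.49 there, 0.10 in agria females and 0.15 in males. Those lower in Punta Prieta had medians of -0.38, -0.05 and -0.13. The 751 were chosen by their values in organ pipe females, which inflates their medians there, so the smaller medians in the other flies are no measure of a difference between the sets. Over all transcripts the medians of the difference were -0.04, -0.00 and -0.02.

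The large differences recurred. All 47 transcripts over 2-fold apart had the same sign in agria females, where 26 of them differed by limma, and 46 of the 47 had it in males, where 36 did. In agria females 98 transcripts differed in all (0.675%), 31 higher (0.213%) and 67 lower (0.461%) in Punta Prieta, and 1024 had an unadjusted p below 0.05 (7.05%). Of the 98, 57 were among the 751, which is 58.2% of the agria list and 7.59% of the organ pipe list, and all 57 had the same direction. In males 539 differed (3.71%), 241 higher (1.66%) and 298 lower (2.05%). Of these, 155 were among the 751, or 28.8% of the male list and 20.6% of the female list, and 153 had the same direction. FBtr0164933 differed by 2.80 (SE 0.147, adjusted p = 1.34e-09 by limma) in agria females and by 1.80 (SE 0.116) in males, FBtr0167831 by 2.53 (SE 0.123) and 2.11 (SE 0.192). FBtr0167365, at -1.96 in organ pipe females, was at -2.49 (SE 0.123) in agria females and -2.64 (SE 0.174) in males, and FBtr0171396 was at -1.31 (SE 0.19) and -1.43 (SE 0.191). FBtr0175016, the second lowest in agria females, was at -1.59 in organ pipe females and -1.93 in agria females. Of the transcripts furthest apart in males, FBtr0175546 was at 2.36 in organ pipe females and 2.59 in males, and FBtr0172679 at -1.57 in organ pipe females and -1.80 in males.

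**Figure D4:**
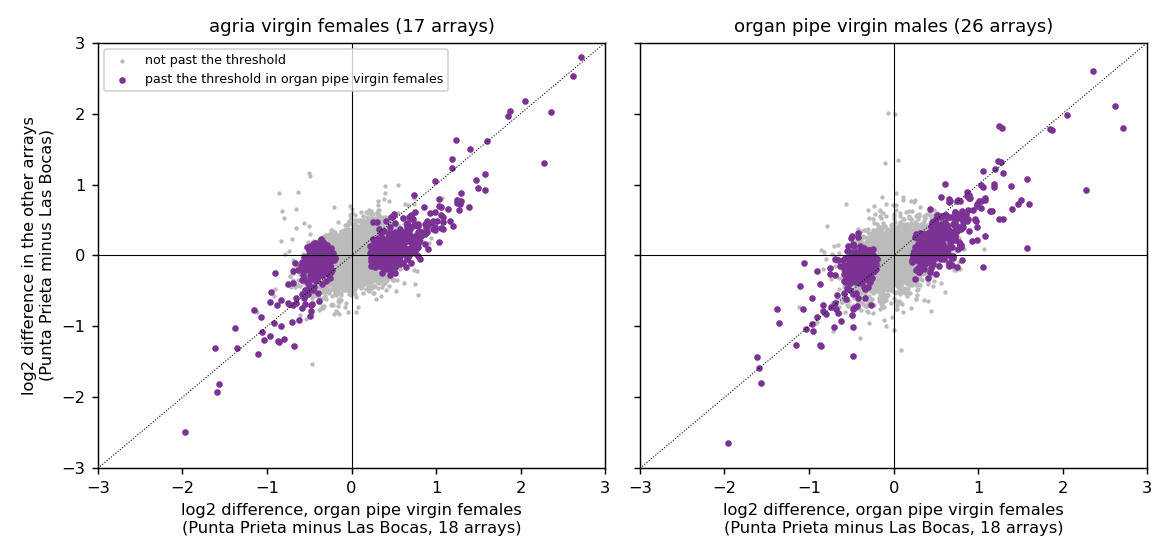
Each point is a transcript, with its log2 difference between Punta Prieta and Las Bocas in organ pipe virgin females on the x axis and in agria virgin females (left) or organ pipe virgin males (right) on the y axis; the dotted line marks equal differences. The 751 transcripts called in organ pipe virgin females are purple, and were chosen by their x values, so points nearer to 0 on the y axis do not show a smaller difference in the other flies; all 47 over 1 in size have the same sign on the left and 46 of them on the right.

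Whether the population difference depended on the cactus was tested as the product of population and diet, with the 18 arrays and the 17 of agria virgin females. By limma 0 transcripts passed, with a smallest adjusted p of 0.300, and 1952 had an unadjusted p below 0.05 (13.4%). None passed under any alternative, array weights and the fit with trend and robust variances included. The 95% interval of the difference between the cacti lay within 2-fold for 13697 transcripts (94.3%), and for 664 of the 751. The smallest p on the positive side was that of FBtr0163185, with a population difference of 0.35 (SE 0.101) on organ pipe and -0.31 (SE 0.112) on agria, adjusted p = 0.300 by limma for the change. On the negative side it was FBtr0170919, strongly female-biased, with -0.43 (SE 0.0881) on organ pipe and 0.17 (SE 0.135) on agria and an adjusted p of 0.300 by limma; its Punta Prieta array of 16 days replicate 1 lay apart from the others, at 13.46.

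The same question for development time gave no call. Between 15 and 18 days the population difference changed with each day longer for 0 transcripts by limma (smallest adjusted p of 0.9998), and 301 had an unadjusted p below 0.05 (2.07%). With array weights 0 passed as well, and 1652 had an unadjusted p below 0.05. The 95% interval of the change per day lay within 0.5 log2 for 12153 transcripts (83.7%). FBtr0172818 had the smallest p, with population differences of -0.07 at 15 days, 0.18 at 16 days, 0.68 at 17 days and 0.63 at 18 days, a slope of 0.29 per day (SE 0.0665, adjusted p = 0.9998 by limma). For FBtr0169306 the differences were 0.16, 0.46, -0.65 and -0.53 from 15 to 18 days, and the slope was -0.33 per day (SE 0.106, adjusted p = 0.9998 by limma). At 18 days each population had 1 array, so that end of the range rests on a single pair.

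Between the sexes the population difference did change. With 26 arrays of organ pipe virgin males added, it was more positive in females than in males for 84 transcripts (0.578%) and more negative for 39 (0.268%), 123 in all (0.847%). Of the 123, 43 differed between populations in females alone, 51 in males alone, 8 in both and 21 in neither when each sex was fitted on its own. The estimates had opposite signs in 99, but only in 2 did the populations differ past the threshold in both sexes with opposite directions. Before adjustment 1861 had p below 0.05 (12.8%). Without a Punta Prieta female array the count was 197 (15 days replicate 4), 77 (16 days replicate 1), 196 (16 days replicate 2) and 70 (18 days replicate 1). Without a Las Bocas female array it was 78 (15 days replicate 1), 266 (15 days replicate 2) and 77 (16 days replicate 3). Without the Punta Prieta male arrays of 16 days replicate 3 and 17 days replicate 1, known from earlier work on these data to stand apart, it was 194, with 106 more positive and 88 more negative in females.

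In the transcripts with the widest contrasts the populations were far apart in males and close in females. FBtr0172763 had 9.47, 10.0 and 10.4 (lowest, median, highest) in Punta Prieta females and 9.77, 10.1 and 10.4 in Las Bocas females, which overlap almost fully. In males it had 12.5, 13.5 and 13.9 in Punta Prieta and 10.9, 11.3 and 12.3 in Las Bocas, with no overlap. The population difference was -0.07 (SE 0.115) in females and 2.01 (SE 0.153) in males, a gap of -2.08 (SE 0.213, adjusted p = 3.28e-08 by limma). FBtr0175386 had 8.62, 8.80 and 9.70 in Punta Prieta females and 8.20, 8.87 and 9.24 in Las Bocas females. Its males had 11.42, 12.22 and 13.08 in Punta Prieta and 9.80, 10.29 and 10.75 in Las Bocas, again with no overlap. The difference was 0.02 (SE 0.153) in females and 1.99 (SE 0.132) in males, a gap of -1.97 (SE 0.208, 95% interval -2.39 to -1.55, limma adjusted p = 4.17e-08). Both transcripts are classed as moderately male-biased from agria virgins of both populations (female minus male, -1.68 and -1.71), not from these organ pipe values.

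The opposite contrast was led by transcripts with more expression in females than in males. FBtr0172616 had 12.0, 13.0 and 13.6 in Punta Prieta females and 11.3, 11.8 and 12.4 in Las Bocas females, which overlap at their edges, and in males it had 9.52, 10.21 and 10.82 in Punta Prieta and 9.95, 10.43 and 10.71 in Las Bocas. Its population difference was 1.06 (SE 0.192, adjusted p = 0.00377 by limma) in females and -0.17 (SE 0.109) in males, and the gap was 1.23 (SE 0.211, limma adjusted p = 0.000908). FBtr0168952, which is strongly female-biased, had 13.78, 14.54 and 14.97 in Punta Prieta females and 13.45, 14.11 and 14.41 in Las Bocas females, with wide overlap. In males it had 10.44, 10.91 and 11.87 in Punta Prieta and 11.19, 11.78 and 12.05 in Las Bocas. It had a difference of 0.44 (SE 0.159) in females that did not pass (limma adjusted p = 0.107) and fell by 0.79 (SE 0.12) in males. Its gap was 1.23 (SE 0.2, limma adjusted p = 0.000403), of which the males' difference is the larger share. With arrays of 15 and 16 days only, neither gap passed, at 1.15 (limma adjusted p = 0.121) for FBtr0172616 and 1.18 (limma adjusted p = 0.0606) for FBtr0168952.

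**Figure D5:**
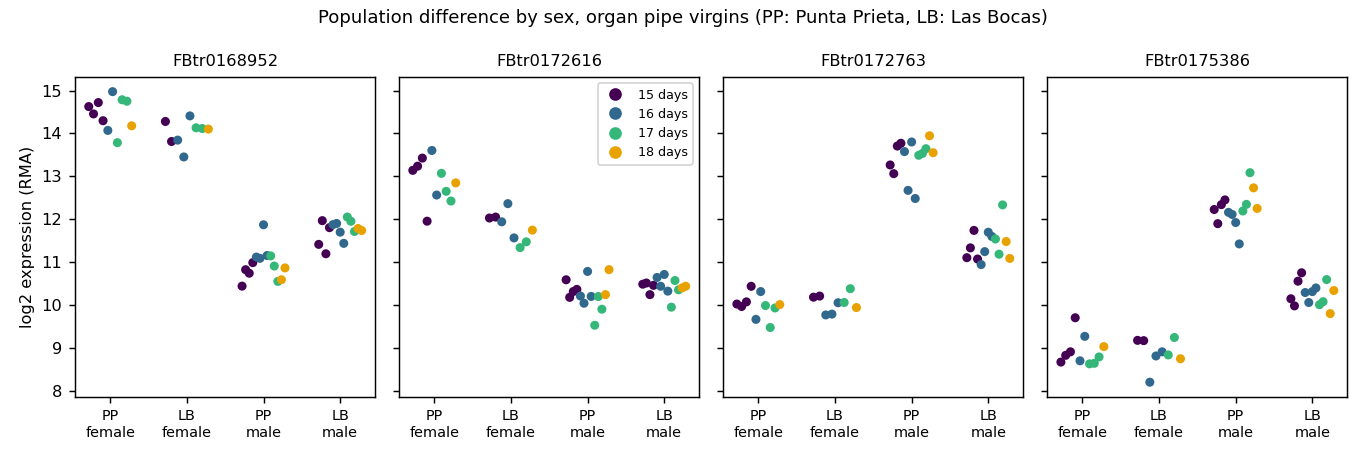
Log2 expression (y axis) of FBtr0168952, FBtr0172616, FBtr0172763 and FBtr0175386 on each organ pipe virgin array of 15 to 18 days, by sex and population (PP Punta Prieta, LB Las Bocas; colour is development time). In the 2 panels on the right the female groups overlap while the Punta Prieta males lie above the Las Bocas males, and in FBtr0172616 the populations are further apart in females.

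Transcripts were also grouped by sex bias, measured in agria virgins of 15 and 16 days (17 female and 16 male arrays), none of which is among the 18. In adult Drosophila the ovary accounts for much female-biased expression, and the testis and accessory gland for much male-biased expression. Transcripts over 4-fold female-biased numbered 369, of which 6 were higher and 41 lower in Punta Prieta (1.63% and 11.1%, where 2.93% and 2.24% of all transcripts were called). Among 4491 moderately female-biased transcripts 49 were higher and 181 lower (1.09% and 4.03%). Those with little sex bias went the other way, with 318 higher and 71 lower of 6884 (4.62% and 1.03%). The moderately male-biased ones, with 51 higher and 23 lower of 1347 (3.79% and 1.71%), lay nearer to the shares over all transcripts. Of 1437 transcripts over 4-fold male-biased, 2 were higher and 9 lower (0.139% and 0.626%), and with 2-fold as the limit 14 were higher and 17 lower of 2039. The median standard error was 0.164 in the strongly male-biased class and 0.110 in the strongly female-biased class. A difference of a given size was thus harder to detect in the strongly male-biased class.

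The medians of the population difference were -0.20 in the strongly and -0.09 in the moderately female-biased class, 0.04 with little sex bias, -0.00 in the moderately and -0.18 in the strongly male-biased class, and -0.04 over all transcripts. In agria virgin females the strongly female-biased class lay at a median of 0.09, with 1 member higher and 0 lower, and whether this class differs between the cacti was not tested. These counts moved widely with single arrays, most often highest without Punta Prieta 15 days replicate 4 and lowest without Las Bocas 16 days replicate 3. Over the 18 fits that each leave out 1 array, moderately female-biased transcripts ran from 35 to 82 higher and from 58 to 286 lower. Those with little sex bias ran from 139 to 530 higher and from 26 to 145 lower, and moderately male-biased ones from 21 (without Punta Prieta 18 days replicate 1) to 89 higher and from 11 to 43 lower. The strongly male-biased count lower in Punta Prieta was 57 without Punta Prieta 15 days replicate 4 and 5 without Punta Prieta 15 days replicate 2, 15 days replicate 3 or 16 days replicate 1. It was 5 without Las Bocas 15 days replicate 1, 18 without Las Bocas 16 days replicate 1 and 4 without Las Bocas 16 days replicate 3. In all 18 fits both female-biased classes and the strongly male-biased class had more members lower than higher. The other classes had more higher than lower. These fits share most of their arrays, so they are not independent checks.

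Single arrays also set the size of the count of strongly female-biased transcripts lower in Punta Prieta, which ran from 10 to 70 as each of the 18 was left out. Without a Punta Prieta array it was 17 and 20 (15 days replicates 2 and 3), 24 (17 days replicate 1) and 11 (18 days replicate 1). Without a Las Bocas array it was 10 (15 days replicate 1), 70 (15 days replicate 2), 18, 19 and 10 (16 days replicates 1, 2 and 3) and 17 (18 days replicate 1), and the others moved it by less than 1.5 times. It was 66 with each array centred on its median, 77 after quantile normalization and 116 with array SD as a covariate. With only the arrays of 15 and 16 days, 2 were higher and 2 lower. A sex score of each array was the mean of the strongly female-biased minus that of the strongly male-biased transcripts. It lay between 2.50 and 3.54 in Punta Prieta and between 2.41 and 3.69 in Las Bocas, so the populations overlapped on it. The 2 classes had similar median differences, -0.20 and -0.18, and a shift that both share cancels in this score. It therefore cannot show whether the strongly female-biased class is lower in Punta Prieta. Fewer cells of a type and less RNA per cell cannot be told apart in whole flies.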

How the data were processed

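RNA from whole flies was hybridised to one-colour Cy3 NimbleGen arrays, per the labels. The log2 values were deposited by the authors as 1 value per transcript and array and were made with RMA, per the submitters' processing notes; for its version, settings and annotation release the sources used here give nothing. The deposited arrays did not share one distribution, with medians of 11.24 to 11.50 and SDs of 1.68 to 1.90 among the 18, and RMA values of dim transcripts tend to compress differences. Scanner signals, slides and scan dates were not used here. The number of arrays limits the precision.

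Groups came from the titles. Differences were fitted with limma 3.58.1 in R 4.3.3 (lmFit, eBayes) on the arrays compared only, with development time as a linear term, one per diet or sex in the product fits, and Benjamini-Hochberg adjustment over 14528 transcripts. Named are the 2 largest differences in each direction past the threshold of 0.05, or the smallest p in each direction where none passed. Sex-bias classes were strong (over 4-fold and past the threshold), moderate (over 0.5 log2 and past it) and little (the rest). The arrays compared, the classes and this rule were chosen with earlier results of these data known. Gene lists by name were not run, since no transcript could be named. The fits were tested on simulated data with noise drawn separately for each transcript. Effects of 0.5 log2 were recovered in 40% for population, 36% for its product with diet and 26% with sex. Effects of 1 log2 were recovered in 90%, 84% and 84%. For the product with development time, 68% were recovered at 0.5 log2 per day. Variation shared across transcripts was not simulated, so the simulation does not bear on how far the counts move with single arrays. Alternatives covered scaling, the filter on dim transcripts, the variance model, array weights, the handling of days, a replicate block and arrays left out.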

Additional observations from a re-analysis of the deposited data

Results flagged for a closer look

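The population difference differed between females and males for 123 transcripts by the limma test of the product of population and sex. The differences, females minus males, were 1.23 for FBtr0168952, 1.23 for FBtr0172616, -2.08 for FBtr0172763 and -1.97 for FBtr0175386, and these 4 kept their direction under all 36 alternatives. FBtr0172763 and FBtr0175386 passed the threshold in all of them, with limma adjusted p of at most 0.0079 and 0.00413. FBtr0168952 and FBtr0172616 each missed it in 2, with limma adjusted p up to 0.0667 and 0.496. The 36 alternatives did not leave out each male array in turn.

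In FBtr0170919 the Punta Prieta array of 16 days, replicate 1, lay far below the other Punta Prieta arrays, at 13.46 where the median of the 10 was 14.0. Of 32 groups of values checked for such an array this was the 1 found. Chance flags about 1 in 20 groups, so 1 among 32 is no more than chance would give.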

How the results depend on the processing

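The population count of 751 became 1133 with each array centred on its median, 1254 after quantile normalization, 3920 with array weights, 103 with 15 and 16 day arrays only, 312 with 15 to 17 day arrays and 1150 with the 14 day arrays added. It was 1962 with array SD as a covariate and 1014 without the 2 arrays of lowest SD, both chosen after seeing the data. Leaving out 1 array gave 310 to 1307 and leaving out each replicate number 43 to 1307, of fewer arrays. Of the 751, 735 were called again after median centring, 731 after quantile normalization and 92 with 15 and 16 days only. For the product of population and sex, 123 became 207 after quantile normalization, 2364 with array weights, 22 with 15 and 16 days, 81 with 15 to 17 days, 202 with 14 days added, 194 without 2 male arrays that stood apart and 307 with array SD as a covariate. Leaving out 1 of the 18 female arrays gave 70 to 266 and leaving out a replicate number 4 to 219. The male arrays were not each left out in turn. Array weights raised the shared calls, 57 to 100 in agria females and 153 to 248 in males. With 2-fold as strong sex bias 210 strongly biased transcripts were called, against 58, where 5.17% of all transcripts were called. The classes were larger at 2-fold, with 2298 female-biased and 2039 male-biased transcripts against 369 and 1437. The slope of FBtr0169306 was 0.30 with 15 and 16 days only. The products with development time and diet stayed at 0 throughout. Where no construction shows it, the cause was not tested. Whether replicate numbers pair the arrays is not settled by these values. Residuals of same-numbered arrays of 1 day correlated from -0.653 to 0.391 and over 0.1 in 2 of 7 pairs, which are too few to decide it. With the replicate block 1123 transcripts passed for population, 125 for population by sex and 0 for the other products.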
